A study of Mus musculus with 19 samples.

Results

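Enzymes that make ceramide and that make, dephosphorylate or cleave sphingosine-1-phosphate were followed in mouse alveolar type II (AT2) cells and in whole lung. The 10 genes are the ceramide synthases Cers2, Cers4, Cers5 and Cers6, the dihydroceramide desaturase Degs1, the sphingosine kinases Sphk1 and Sphk2, the sphingosine-1-phosphate phosphatases Sgpp1 and Sgpp2, and the sphingosine-1-phosphate lyase Sgpl1. They are 10 of the 36528 Entrez gene IDs in the deposited tables. They were chosen by symbol from the sphingolipid pathway with the counts of all 4 groups already known. Their levels and differences are therefore a description, and the adjusted p-values beside them come from fits over all genes and are no independent support. All 10 passed the filter on low counts in every fit.

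Polyadenylated RNA was sequenced from sorted AT2 cells and from lung of mice of both genotypes. The Etv5KO mice were SpcCreERT2;RosatdTomato;Etv5ko/loxp, and gave 5 AT2 and 5 lung libraries. The control mice were SpcCreERT2;RosatdTomato, and gave the 4 AT2 and 5 lung libraries used here. All mice thus carried the Cre recombinase, which is driven by the surfactant protein C (Spc) promoter and becomes active with tamoxifen, and the red tdTomato reporter. Tamoxifen was given to both genotypes at 100 mg/kg over 5 days, followed by 5 further days. AT2 cells were sorted as EpCAM+, tdTomato+, CD45- and CD31- cells, so they had undergone recombination of the reporter, whereas lung also holds every cell type in which that promoter is silent. The Etv5KO genotype names an Etv5ko allele beside the loxp allele, and the control genotype names neither. The parts of both alleles in the differences below cannot be told apart, in AT2 cells or in lung. The labels state neither age nor sex of the mice, nor whether 1 mouse gave both an AT2 and a lung library. The series asks which genes depend on Etv5, an ETS family transcription factor, in AT2 cells and lung.

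Ceramide synthases join a fatty acyl chain to a sphingoid base, and each isoform prefers chains of certain lengths. Cers2 prefers very long chains, Cers4 chains of intermediate to long length, and Cers5 and Cers6 mainly the palmitoyl chain. The product made along the de novo route, dihydroceramide, is turned into ceramide by Degs1. Ceramidases release sphingosine from ceramide, Sphk1 and Sphk2 phosphorylate it, Sgpp1 and Sgpp2 take the phosphate off again, and Sgpl1 cleaves sphingosine-1-phosphate irreversibly. AT2 cells make and secrete surfactant, which is mostly phospholipid with some sphingolipid, and sphingosine-1-phosphate acts on receptors that hold the endothelial barrier of the lung together.

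The upstream promoter bases of the 4 members that passed the test between genotypes in AT2 cells are shown, because ETS factors bind DNA at a GGAA core. Each run is the 250 bases before an annotated gene start, 5′ to 3′ along the gene, from RefSeq on GRCm38.p6. Capitals mark matches to CCGGAA, a common form of the ETS core with its flank, on either strand (TTCCGG on the printed strand). Sgpp2, which rose, and Cers6 and Cers4, which fell, held no match to CCGGAA. The bare GGAA core was not searched for, and their runs hold it on the printed or the opposite strand. The first of the annotated promoters of Cers2, which rose, held 1 match to CCGGAA starting 76 bases before the gene start.
Sgpp2 chr1:78310096-78310345 plus strand: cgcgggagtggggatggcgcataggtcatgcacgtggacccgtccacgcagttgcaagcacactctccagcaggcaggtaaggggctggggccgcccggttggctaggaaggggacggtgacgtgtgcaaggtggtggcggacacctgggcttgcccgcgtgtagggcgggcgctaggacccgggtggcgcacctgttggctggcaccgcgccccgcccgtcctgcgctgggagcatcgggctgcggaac
Cers6 chr2:68861191-68861440 plus strand: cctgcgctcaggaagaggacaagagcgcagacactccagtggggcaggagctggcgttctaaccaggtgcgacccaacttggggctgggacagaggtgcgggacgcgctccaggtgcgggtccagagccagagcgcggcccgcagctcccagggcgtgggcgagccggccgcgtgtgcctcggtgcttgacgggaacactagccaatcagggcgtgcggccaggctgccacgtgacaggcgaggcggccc
Cers4 chr8:4493155-4493404 plus strand: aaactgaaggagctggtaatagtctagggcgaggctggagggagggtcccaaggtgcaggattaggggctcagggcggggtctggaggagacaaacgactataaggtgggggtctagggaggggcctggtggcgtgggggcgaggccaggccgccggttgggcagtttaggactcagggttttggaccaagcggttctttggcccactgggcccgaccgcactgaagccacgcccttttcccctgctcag
Cers2 chr3:95314940-95315189 plus strand: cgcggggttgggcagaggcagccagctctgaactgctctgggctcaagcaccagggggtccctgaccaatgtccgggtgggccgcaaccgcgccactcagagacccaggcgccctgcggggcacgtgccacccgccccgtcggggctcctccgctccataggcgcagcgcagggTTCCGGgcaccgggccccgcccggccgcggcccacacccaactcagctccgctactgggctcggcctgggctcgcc
All 10 members were matched to RefSeq promoters, 16 promoters in all. CCGGAA was found in 6 of these promoters, which belong to 5 members (Cers2, Sphk1, Sphk2, Sgpp1 and Sgpl1). The same motif was found in 12.0% of all 32851 promoters of that length, and the longer CCGGAAGT in 2.88% of all promoters and in 0 members. The shorter motif lies within the longer one, so both counts overlap. The Sphk1 promoters with a match also overlap each other and hold the same match, so it counts more than once among the 6. A match is a run of letters and not a site of binding, and no match says only that these letters are not in this window.

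Libraries held between 14971793 and 28671262 counts. Levels are given as nRPKM, the authors' RPKM (reads scaled to gene length and library size) divided by their size factor, which allows genes to be compared per length. Fold changes are Etv5KO over control from edgeR's quasi-likelihood test on the counts, with standard errors (SE), and a gene passed when its Benjamini-Hochberg adjusted p over all genes was under 0.05. The targeted gene, Etv5, averaged 167 ± 13.6 nRPKM in Etv5KO AT2 cells and 154 ± 9.53 nRPKM in control AT2 cells (SD, n = 5 and 4). In lung it averaged 26.9 ± 2.72 nRPKM in Etv5KO mice and 24.6 ± 1.81 nRPKM in controls (SD, n = 5 each). Its RNA was thus not reduced in libraries labelled Etv5KO (log2 fold change 0.10, SE 0.08, in AT2 cells and 0.12, SE 0.08, in lung). The deposited counts cover the whole gene model and not the deleted part alone, so they do not check the genotype labels, and every difference below is between libraries as labelled. Summed levels of 7 AT2 markers lay at 96454 to 128648 nRPKM in Etv5KO AT2 cells and at 93572 to 153808 nRPKM in control AT2 cells, against 13055 to 18082 nRPKM over all lung libraries. The 5 endothelial markers summed to 18.7 to 30.6 nRPKM in Etv5KO AT2 cells and 16.9 to 27.4 nRPKM in control AT2 cells, against 771 to 1096 nRPKM in lung. Control AT2 library 2 stood apart from the other AT2 libraries on the second principal component (score 28.7, the others between -18.0 and 12.5). Without it Cers6, Cers4 and Sgpp2 still passed in AT2 cells and Cers2 did not (adjusted p = 0.0913).

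In AT2 cells, 2 of the 10 enzymes rose in Etv5KO mice (Sgpp2 and Cers2), 2 fell (Cers6 and Cers4), and 6 did not pass. Over all 14939 genes tested there, 5.03% rose and 4.84% fell. In lung 1 of the 10 rose (Sgpp2) and 0 fell, where 0.205% of 17098 genes rose and 0.211% fell. The median log2 fold change of the 10 was 0.17 in AT2 cells and 0.03 in lung, and that of all genes tested was -0.01 in both. These counts were among the values known when the genes were picked, and nothing is read from them about the set.

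**Figure D1:**
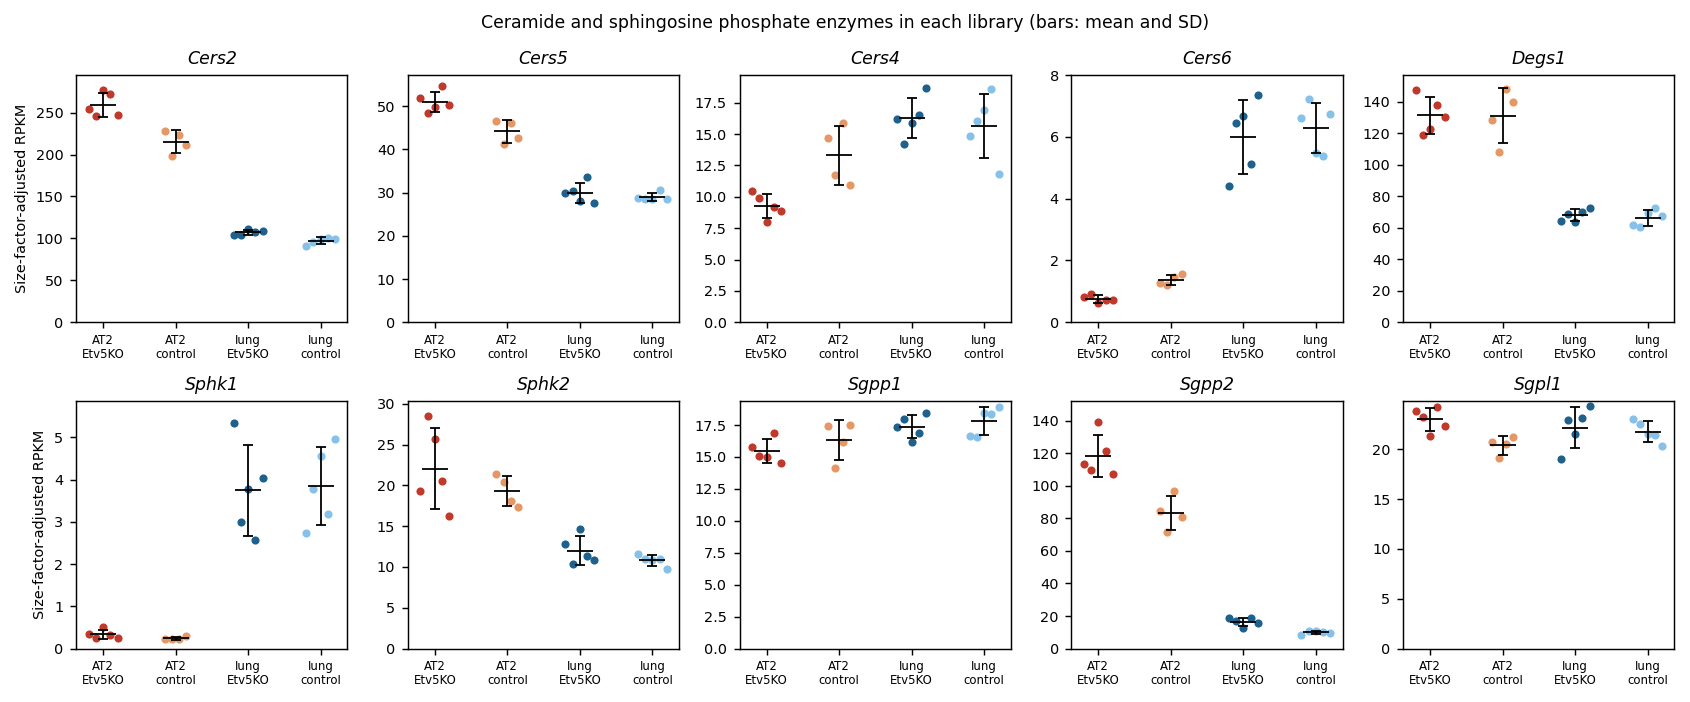
Level of each enzyme in each library as size-factor-adjusted RPKM (linear axes starting at 0), with the mean and SD of each group. Sgpp2 is higher in Etv5KO than in control libraries in both tissues without overlap, and Cers6 and Cers4 are lower in Etv5KO AT2 cells without overlap.

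Among the ceramide synthases, Cers6 had the largest change in AT2 cells. Its nRPKM values were 0.802, 0.927, 0.607, 0.714 and 0.733 in Etv5KO AT2 cells, against 1.26, 1.21, 1.45 and 1.55 in control AT2 cells. All 5 Etv5KO libraries lay below all 4 control libraries. Cers6 fell 1.83-fold (log2 fold change -0.87, SE 0.13, adjusted p = 0.00158 by edgeR). The gene was scarce in these cells, with 95 to 135 counts per Etv5KO library and 181 to 266 per control library. Its gene body also holds GENCODE entries on the same strand that were not matched to an ID in the count tables, Gm37747 with 4003 shared bases being the longest overlap. In lung, Cers6 stood at 4.42, 6.46, 6.67, 5.11 and 7.34 nRPKM in Etv5KO mice, against 6.62, 7.24, 5.48, 5.37 and 6.73 nRPKM in controls. These ranges overlapped, and the difference did not pass (log2 fold change -0.08, 95% interval -0.37 to 0.22, adjusted p = 0.981 by edgeR).

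Cers4 was the other ceramide synthase that fell in AT2 cells. It was measured at 10.5, 9.88, 7.96, 9.17 and 8.89 nRPKM in Etv5KO AT2 cells, against 14.7, 11.7, 15.9 and 11.0 nRPKM in control AT2 cells. The groups did not overlap, although the highest Etv5KO library and the lowest control library lay close together. Cers4 fell 1.45-fold (log2 fold change -0.54, SE 0.11, adjusted p = 0.0114 by edgeR). In lung it averaged 16.3 ± 1.59 nRPKM in Etv5KO mice and 15.7 ± 2.53 nRPKM in controls (SD, n = 5 each), with overlapping ranges and a log2 fold change of 0.05 (95% interval -0.19 to 0.28). The GENCODE gene body of Cers4 shares 2063 bases with Vmn2r-ps89 and 214 bases with Gm36956, both on the opposite strand. Neither was matched to an ID with counts, and their share of the Cers4 reads was not tested.

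Cers2, the most abundant of the 10 transcripts in every group, rose slightly in AT2 cells. Its nRPKM values were 254, 246, 277, 273 and 247 in Etv5KO AT2 cells, against 228, 198, 224 and 211 in control AT2 cells. Every Etv5KO library exceeded every control library, by a difference that was small relative to the level. The rise was 1.19-fold (log2 fold change 0.25, SE 0.07, adjusted p = 0.0473 by edgeR) and lay at the edge of the threshold. It passed in 1 of the 9 fits that left out a library, the one without Etv5KO AT2 library 2, and the largest adjusted p was 0.120, without Etv5KO AT2 library 4. With no filter on low counts it did not pass either (adjusted p = 0.116), whereas it passed under the other changes of scaling, tool or grouping. It thus passed in 7 of all 16 alternatives, and its adjusted p over these ran from 0.00386, with DESeq2, to 0.120. In lung Cers2 was at 104.4, 104.2, 111, 107.5 and 108.5 nRPKM in Etv5KO mice, against 91.0, 95.5, 99.6, 100.4 and 99.8 nRPKM in controls. The lung groups did not overlap, but the difference did not pass (log2 fold change 0.13, SE 0.05, adjusted p = 0.774 by edgeR). The GENCODE gene body of Cers2 shares 337 bases with 6330562C20Rik and 75 bases with Setdb1, both on the opposite strand. Setdb1 did not pass in either tissue (adjusted p = 0.537 in AT2 cells and 0.978 in lung by edgeR).

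Cers5 averaged 51.0 ± 2.36 nRPKM in Etv5KO AT2 cells and 44.2 ± 2.60 nRPKM in control AT2 cells (SD, n = 5 and 4). The groups did not overlap, and the log2 fold change of 0.19 (SE 0.06) did not pass with edgeR (adjusted p = 0.0819), although it did with DESeq2 (adjusted p = 0.0332) and with scaling by library size alone (adjusted p = 0.0172). Over its 16 alternatives the adjusted p ran from 0.0172 to 0.200. In lung Cers5 averaged 29.9 ± 2.39 nRPKM in Etv5KO mice and 28.98 ± 0.870 nRPKM in controls (SD, n = 5 each), with overlapping ranges. The GENCODE gene body of Cers5 shares 6895 bases with Gm17058 on the opposite strand.

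The make-up of the ceramide synthase transcripts was compared within each library as a share of the summed nRPKM of Cers1 to Cers6. That sum averaged 321 ± 15.2 nRPKM in Etv5KO AT2 cells and 275 ± 18.2 nRPKM in control AT2 cells (SD, n = 5 and 4). Cers2 made up 80.6 ± 0.995% of it in Etv5KO AT2 cells and 78.2 ± 0.576% in control AT2 cells, and every Etv5KO library had the larger share. Cers4 made up 2.90 ± 0.378% in Etv5KO AT2 cells and 4.81 ± 0.591% in control AT2 cells. The share of Cers6 was 0.237 ± 0.0457% in Etv5KO AT2 cells and 0.498 ± 0.0600% in control AT2 cells. Cers5 made up 15.9 ± 0.644% in Etv5KO AT2 cells and 16.1 ± 0.162% in control AT2 cells. Per length, there were 351 ± 72.0 Cers2 transcripts for each Cers6 transcript in Etv5KO AT2 cells and 158 ± 18.2 in control AT2 cells, with ranges of 266 to 456 and 137 to 180. In lung the same ratio was 18.4 ± 3.74 in Etv5KO mice and 15.7 ± 2.54 in controls (SD, n = 5 each), and the ranges overlapped.

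**Figure D2:**
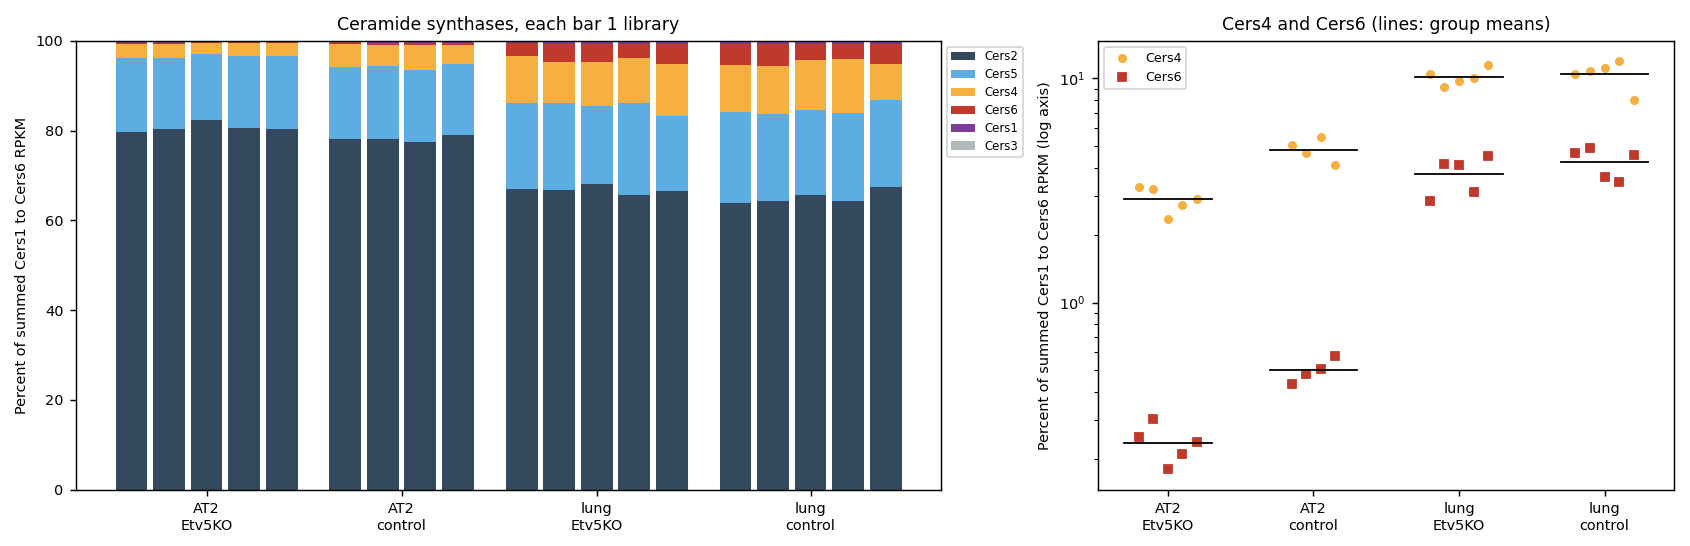
Left, stacked bars give each ceramide synthase as a percent of the summed RPKM of Cers1 to Cers6, 1 bar per library. Right, the shares of Cers4 and Cers6 per library on a log axis, with group means as lines; Cers6 averages 0.237% in Etv5KO AT2 cells and 0.498% in control AT2 cells.

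Degs1 had almost the same mean in both genotypes. It stood at 148, 119, 122, 138 and 130 nRPKM in Etv5KO AT2 cells, against 128, 108, 148 and 139.9 nRPKM in control AT2 cells, and the ranges overlapped throughout. The log2 fold change was -0.01 with a 95% interval of -0.23 to 0.21. In lung Degs1 averaged 67.9 ± 3.84 nRPKM in Etv5KO mice and 66.3 ± 5.04 nRPKM in controls (SD, n = 5 each; 95% interval of the log2 fold change -0.11 to 0.16).

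Of the sphingosine kinases, Sphk1 had the lowest mean of the 10 enzymes in every group, although its range overlapped that of Cers6 in Etv5KO lung. It had 25 to 66 counts per library in Etv5KO AT2 cells and 23 to 30 in control AT2 cells. Its levels were 0.354, 0.249, 0.518, 0.316 and 0.241 nRPKM in Etv5KO AT2 cells, against 0.233, 0.216, 0.237 and 0.295 nRPKM in control AT2 cells. The ranges overlapped, Etv5KO library 3 was the highest, and at this depth the log2 fold change of 0.45 had an interval of -0.10 to 1.01. In lung, Sphk1 ran at 2.56 to 5.35 nRPKM in Etv5KO mice and 2.73 to 4.97 nRPKM in controls, with medians of 3.78 in both. The GENCODE gene body of Sphk1 shares 2153 bases with Gm29292 on the opposite strand.

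Sphk2 carried most of the kinase signal in AT2 cells. It was measured at 19.3, 28.5, 25.7, 20.5 and 16.2 nRPKM in Etv5KO AT2 cells, against 21.4, 20.4, 18.1 and 17.3 nRPKM in control AT2 cells, with overlapping ranges (log2 fold change 0.17, 95% interval -0.14 to 0.49). In lung it averaged 12.0 ± 1.76 nRPKM in Etv5KO mice and 10.8 ± 0.695 nRPKM in controls (SD, n = 5 each; 95% interval -0.06 to 0.35). The GENCODE gene body of Sphk2 shares 737 bases with Dbp, a clock-controlled transcription factor on the opposite strand, and 2546 bases with Rpl18, a ribosomal protein gene also on the opposite strand. Whether counting used strand is not given in the sources used here, so reads in the shared bases cannot be told apart.

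**Figure D3:**
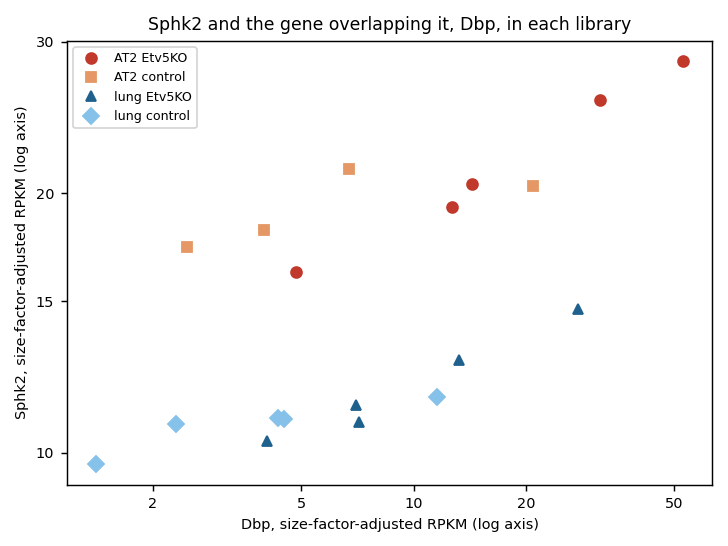
Sphk2 against Dbp in each library, both as size-factor-adjusted RPKM on log axes. Within AT2 cells and within lung, libraries with more Dbp had more Sphk2; Dbp runs from 2.47 to 52.8 in AT2 libraries and from 1.41 to 27.6 in lung libraries.

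Sphk2 followed Dbp from library to library, a relation chosen after its values were seen. The p-values below are therefore a description and no independent support. Their adjustment covers only Pearson's r and Spearman's rho in each tissue, and not the choice of Dbp among all genes. On log2 nRPKM, Pearson's r was 0.876 over the 9 AT2 libraries (exact permutation p = 0.00208, adjusted 0.00277 over 4 relations), and Spearman's rho was 0.833 (exact permutation p = 0.00827). With each genotype centred on its mean r was 0.876, and without the 2 libraries farthest in Dbp it was 0.786. Over the 10 lung libraries r was 0.912 (permutation p = 0.00018, adjusted 0.00072) and rho 0.903 (permutation p = 0.0008, adjusted 0.0016). It was 0.892 with genotypes centred and 0.785 without the farthest 2. Etv5KO AT2 libraries 2 and 3, the highest for Sphk2, were also the highest for Dbp, at 52.8 and 31.7 nRPKM. Dbp itself did not pass between genotypes in either tissue (adjusted p = 0.264 in AT2 cells and 0.899 in lung by edgeR). Its log2 fold change of Etv5KO over control was 1.42 in AT2 cells, with an interval of -0.11 to 2.96. In lung it was 1.29, with an interval of 0.0072 to 2.57. These intervals are wide, so equal Dbp levels in both genotypes were not shown. The part of Dbp in the genotype comparison of Sphk2 was not tested. Rpl18, which shares more bases with Sphk2 than Dbp does, was not correlated with it. In the same Etv5KO AT2 libraries 2 and 3, Rpl18 stood at 13.1 and 16.6 nRPKM. It ran from 13.1 to 20.5 nRPKM over Etv5KO AT2 libraries and from 15.3 to 21.3 nRPKM over control AT2 libraries. The part of the shared bases in the relation of Sphk2 to Dbp was not tested.

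Of the phosphatases, Sgpp2 rose in both tissues. It was measured at 113, 109.7, 139, 122 and 107 nRPKM in Etv5KO AT2 cells, against 84.4, 71.9, 96.7 and 80.7 nRPKM in control AT2 cells. All Etv5KO libraries exceeded all control libraries. The rise was 1.40-fold (log2 fold change 0.49, SE 0.10, adjusted p = 0.0111 by edgeR). In lung, Sgpp2 stood at 18.6, 17.1, 12.8, 18.6 and 15.7 nRPKM in Etv5KO mice, against 8.33, 10.8, 11.0, 9.905 and 9.84 nRPKM in controls. Again no Etv5KO library overlapped the controls, and the rise was 1.65-fold (log2 fold change 0.72, SE 0.11, adjusted p = 0.0105 by edgeR). It passed in all 16 alternative fits in AT2 cells and in all 17 in lung, where the largest adjusted p was 0.0429. By gene body in GENCODE, Sgpp2 shares 14479 bases with the antisense gene Gm28410 and 818 bases with Gm37884 on its own strand. Neither was matched to an ID in the count tables, so their share of the Sgpp2 reads was not tested. Sgpp2 also shares 2315 bases with Farsb on the opposite strand, a subunit of phenylalanyl-tRNA synthetase, which did not pass in either tissue (adjusted p = 0.293 in AT2 cells and 0.978 in lung by edgeR).

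Sgpp1, the other phosphatase, did not differ beyond its spread. It averaged 15.5 ± 0.915 nRPKM in Etv5KO AT2 cells and 16.3 ± 1.57 nRPKM in control AT2 cells (SD, n = 5 and 4; log2 fold change -0.09, 95% interval -0.26 to 0.07). In lung it averaged 17.4 ± 0.911 nRPKM in Etv5KO mice and 17.8 ± 1.10 nRPKM in controls (SD, n = 5 each; 95% interval -0.17 to 0.08). The ratio of Sgpp2 to Sgpp1 within a library was 7.66 ± 0.908 in Etv5KO AT2 cells and 5.12 ± 0.594 in control AT2 cells. In lung it was 0.955 ± 0.135 in Etv5KO mice and 0.562 ± 0.0622 in controls, so the phosphatases were at near equal levels in Etv5KO lung while Sgpp1 exceeded Sgpp2 in control lung. The summed phosphatases stood at 6.17 ± 1.16 times the summed kinases in Etv5KO AT2 cells and 5.15 ± 0.879 times in control AT2 cells, with overlapping ranges.

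Sgpl1, the lyase, was at 23.8, 23.2, 21.3, 24.2 and 22.4 nRPKM in Etv5KO AT2 cells, against 20.7, 19.1, 20.5 and 21.2 nRPKM in control AT2 cells. The groups did not overlap, although only narrowly, and the log2 fold change of 0.16 (SE 0.06) did not pass with edgeR (adjusted p = 0.138). With scaling by library size alone it did (adjusted p = 0.0420), the lowest of its 16 alternatives, whose highest was 0.310. In lung, Sgpl1 averaged 22.2 ± 2.05 nRPKM in Etv5KO mice and 21.8 ± 1.06 nRPKM in controls (SD, n = 5 each). The GENCODE gene body of Sgpl1 shares 99 bases with Gm44308 on the same strand.

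Of the 10 enzymes, 6 did not overlap between genotypes in AT2 cells (Cers2, Cers4, Cers5, Cers6, Sgpp2 and Sgpl1), as did 12.2% of the genes tested. In lung 2 did not (Cers2 and Sgpp2), as did 1.58% of the genes tested.

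**Figure D4:**
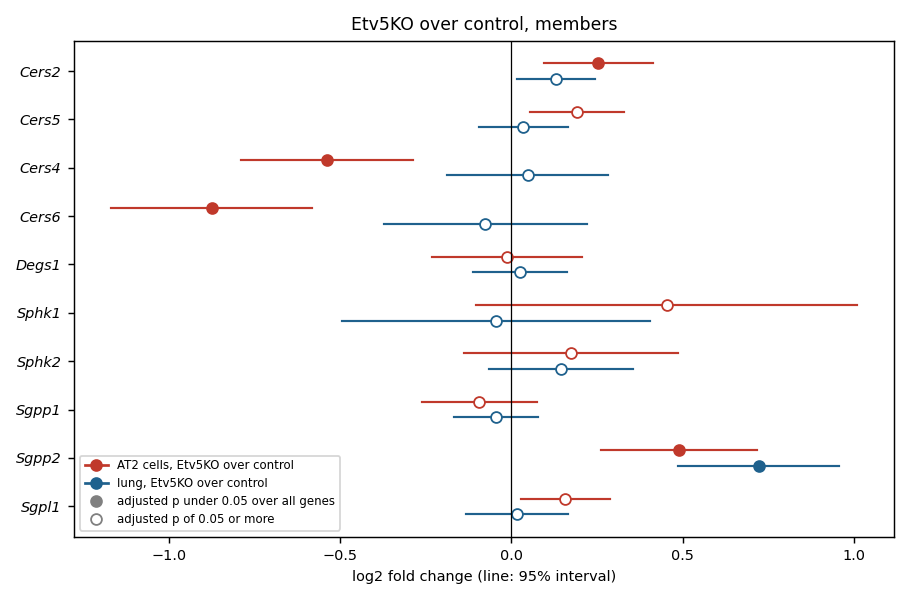
log2 fold change of Etv5KO over control for each enzyme, with 95% intervals, in AT2 cells (red, upper) and lung (blue, lower); filled points passed an adjusted p of 0.05 over all genes. Cers6 and Cers4 lie below 0 in AT2 cells (-0.87 and -0.54) and Sgpp2 lies above 0 in both tissues (0.49 and 0.72).

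The genotype effects in both tissues were compared by an interaction term over all 19 libraries, in which 1 of the 10 enzymes passed, against 0.802% of all 17698 genes with a lower and 0.791% with a higher effect in AT2 cells. Cers6 was the one, with an effect that was lower in AT2 cells than in lung by 0.81 on the log2 scale (log2 difference -0.81, SE 0.20, adjusted p = 0.0443 by edgeR). This call passed in 6 of the 19 fits that left out a library and failed in the others, with adjusted p-values up to 0.126, reached without control AT2 library 3. Cers4 had a difference of -0.60 (SE 0.17) that did not pass with edgeR (adjusted p = 0.0904) and passed narrowly with DESeq2 (adjusted p = 0.0495), the lowest of 25 alternatives, whose highest was 0.283. For Sgpp2 the difference was -0.25 with a 95% interval of -0.57 to 0.08, so a difference between the tissues was not shown, and the interval holds both 0 and a clearly smaller effect in AT2 cells.

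RNA levels of the 10 enzymes in control AT2 cells were set against those in control lung, which also holds AT2 cells. Only the AT2 cells were sorted, so cell type and handling cannot be told apart. In AT2 cells 5 of the 10 were higher (35.6% of 17118 genes were), 2 were lower (38.9% were) and 3 did not pass. Here and below, in bulk samples fewer cells of a type and less RNA per cell cannot be told apart. Sgpp2 had the largest excess, at 83.4 ± 10.3 nRPKM in control AT2 cells and 9.98 ± 1.07 nRPKM in control lung (SD, n = 4 and 5), an 8.61-fold difference (adjusted p = 2.44e-10 by edgeR). Cers2 was 2.28-fold higher (215 ± 13.6 nRPKM in control AT2 cells and 97.2 ± 4.01 in control lung), Degs1 2.04-fold, Sphk2 1.84-fold and Cers5 1.57-fold. Sphk1 was 15.2-fold lower, at 0.245 ± 0.0343 nRPKM in control AT2 cells and 3.85 ± 0.929 nRPKM in control lung. Cers6 was 4.45-fold lower, at 1.37 ± 0.157 nRPKM in control AT2 cells and 6.29 ± 0.820 nRPKM in control lung. Cers4, Sgpp1 and Sgpl1 did not pass (log2 fold changes -0.19, -0.08 and -0.05), although with scaling by library size alone, which shifts the median gene of this comparison by -0.41 on the log2 scale, these too were lower in AT2 cells.

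Ordered by level in Etv5KO AT2 cells, Cers2 was followed by Degs1 and Sgpp2, which overlapped, then by Cers5, then by Sgpl1, Sphk2 and Sgpp1, whose neighbours overlapped, and then by Cers4, Cers6 and Sphk1. Control AT2 cells had the same order, except that there Degs1 and Sgpp2 did not overlap and Sgpp1 and Cers4 did. In lung Cers2, Degs1, Cers5 and Sgpl1 were the highest in both genotypes. Sgpp2 ranked 6 of 10 in Etv5KO lung, where it overlapped Sgpp1 and Cers4, and 8 of 10 in control lung, below Sphk2, which it overlapped.

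Other genes of the pathway were taken from 7 lists by role, 67 genes in all. In AT2 cells 57 were tested, of which 6 rose, 3 fell and 48 did not pass, with a median log2 fold change of 0.01. In lung 64 were tested, of which 1 rose, 1 fell and 62 did not pass, with a median of -0.02. The shares of all genes that rose and fell in each tissue are those given above.

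On the list of other de novo synthesis genes, 0 of 10 tested genes passed in AT2 cells with edgeR or DESeq2, and 0 were under an unadjusted p of 0.05. That list holds the subunits of serine palmitoyltransferase, their Ormdl regulators and Kdsr. It also holds Degs2 and the ceramide synthases Cers1 and Cers3, so not all of it lies upstream of the ceramide synthases. Among the enzymes that supply acyl chains, Elovl1, the elongase of very long saturated and monounsaturated chains whose products Cers2 uses, fell 4.36-fold in AT2 cells (log2 fold change -2.12, SE 0.16, adjusted p = 1.27e-05 by edgeR). It stood at 199, 176.5, 179, 208 and 188 nRPKM in Etv5KO AT2 cells, against 1028, 724, 968 and 565.5 nRPKM in control AT2 cells. In lung it fell 2.32-fold (log2 fold change -1.21, SE 0.11, adjusted p = 0.00036 by edgeR). The ratio of Elovl1 to Cers2 within a library was 0.735 ± 0.0542 in Etv5KO AT2 cells and 3.79 ± 0.83 in control AT2 cells, so Elovl1 was below Cers2 in every Etv5KO AT2 library and above it in every control AT2 library. Elovl7, another elongase of the same list, fell 1.47-fold in AT2 cells (4.41 ± 0.227 nRPKM in Etv5KO AT2 cells and 6.44 ± 0.547 in control AT2 cells; adjusted p = 0.000865 by edgeR).

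**Figure D5:**
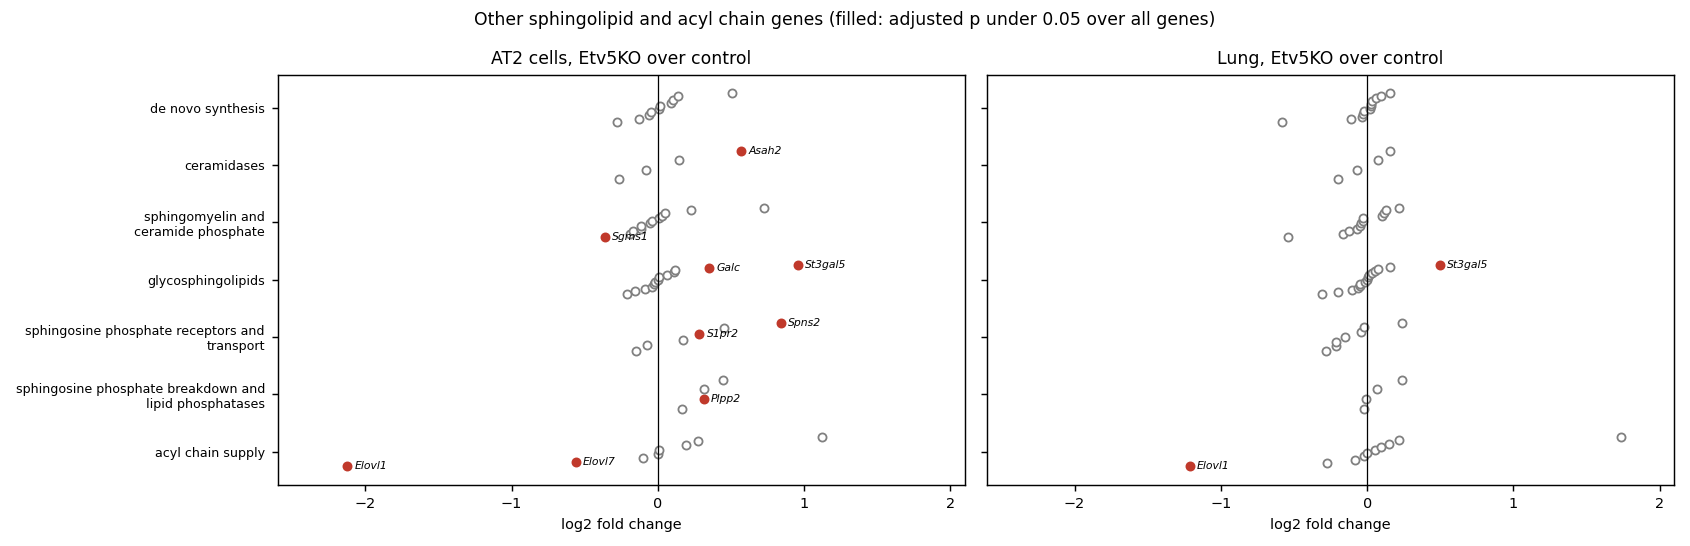
log2 fold change of Etv5KO over control for the tested genes of 7 sphingolipid and acyl chain lists, in AT2 cells (left) and lung (right), 1 point per gene. Filled points passed an adjusted p of 0.05 over all genes and are named; Elovl1 lies at -2.12 in AT2 cells and -1.21 in lung.

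Downstream of ceramide, Asah2, the neutral ceramidase, rose 1.48-fold in AT2 cells (6.49 ± 0.595 nRPKM in Etv5KO AT2 cells and 4.32 ± 0.469 in control AT2 cells; adjusted p = 0.00167 by edgeR), as 1 of 4 ceramidases tested. Sgms1, a sphingomyelin synthase, was the only 1 of 12 genes of sphingomyelin and ceramide phosphate to pass, and fell 1.29-fold (40.1 ± 4.43 nRPKM in Etv5KO AT2 cells and 51.1 ± 1.64 in control AT2 cells; adjusted p = 0.0168 by edgeR). Its call was lost without control AT2 library 1 or 4, with an adjusted p of at most 0.0533. Of 13 glycosphingolipid genes, 2 rose. St3gal5, the synthase of the ganglioside GM3, rose 1.94-fold in AT2 cells (54.6 ± 2.45 nRPKM in Etv5KO AT2 cells and 27.8 ± 3.02 in control AT2 cells; adjusted p = 1.95e-05 by edgeR) and 1.41-fold in lung (15.8 ± 0.595 nRPKM in Etv5KO lung and 11.1 ± 0.659 in control lung; adjusted p = 0.00106 by edgeR). Galc, the lysosomal galactosylceramidase, rose 1.28-fold in AT2 cells (22.6 ± 1.55 nRPKM in Etv5KO AT2 cells and 17.5 ± 0.942 in control AT2 cells; adjusted p = 0.00657 by edgeR).

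Of 6 receptors and transporters of sphingosine-1-phosphate tested in AT2 cells, 2 rose. Spns2, the exporter of sphingosine-1-phosphate, rose 1.79-fold (4.46 ± 0.842 nRPKM in Etv5KO AT2 cells and 2.45 ± 0.647 in control AT2 cells; adjusted p = 0.0156 by edgeR), a call lost without control AT2 library 3 (adjusted p = 0.0523). It was far higher in lung, at 34.0 ± 3.99 nRPKM in Etv5KO mice and 37.6 ± 4.26 nRPKM in controls, where it did not pass. S1pr2, a receptor of sphingosine-1-phosphate, rose 1.22-fold in AT2 cells (adjusted p = 0.0350 by edgeR), but passed in only 2 of the 9 fits that left out a library, those without Etv5KO AT2 library 4 or control AT2 library 2, with an adjusted p of up to 0.108. Plpp2, a lipid phosphate phosphatase, rose 1.24-fold (adjusted p = 0.0302 by edgeR) and passed in 3 of those 9 fits, those without Etv5KO AT2 library 2 or 3 or control AT2 library 3, with an adjusted p of up to 0.0787.

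By the interaction term, the effect on St3gal5 was higher in AT2 cells than in lung by 0.45 on the log2 scale (adjusted p = 0.0146) and that on Spns2 by 0.98 (adjusted p = 0.0151), both by edgeR. The effect on Elovl1 was lower in AT2 cells (log2 difference -0.92, adjusted p = 0.0189 by edgeR), a call lost without control AT2 library 1 or 3 (adjusted p up to 0.0700).

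Some marker lists held genes that passed between genotypes in the same AT2 libraries, and others held none. The 6 AT1 markers summed to 1645 to 1869 nRPKM in Etv5KO AT2 cells and 1217 to 1601 nRPKM in control AT2 cells, and of them 2 rose and 1 fell. The 3 ciliated cell markers summed to 36.4 to 53.4 nRPKM in Etv5KO AT2 cells and 25.4 to 29.2 nRPKM in control AT2 cells, and 1 rose. Of 4 airway secretory markers 2 rose, with sums of 693 to 1348 nRPKM in Etv5KO AT2 cells and 506 to 1206 nRPKM in control AT2 cells. Of 5 macrophage markers 1 rose, and of the 7 AT2 markers 2 fell. Of the 5 endothelial, 5 mesenchymal, 4 lymphocyte and 3 neutrophil markers tested in AT2 cells, 0 passed. No defining marker was at 0 in every library of a group, and the part of these cells in the differences above was not tested.

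The genes whose library-to-library pattern was most like that of the 2 members with the largest change in AT2 cells were found by the root mean square difference of gene-centred log2 CPM over all 19 libraries, among 12241 genes. For Cers6 they were Vat1 (0.249), Abcc1 (0.255) and a gene whose Entrez ID was not matched to a name (0.268). For Cers4 they were Mfsd12 (0.166), 4930404N11Rik (0.180) and Emc2 (0.185). Both patterns contain the difference between AT2 cells and lung as well as that between genotypes. Of these genes, Abcc1 (adjusted p = 0.126 by edgeR) and Emc2 (adjusted p = 0.0813 by edgeR) did not pass between genotypes in AT2 cells, and the others did.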

How the data were processed

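Polyadenylated RNA of 19 libraries was analysed: 5 Etv5KO and 4 control libraries of AT2 cells, and 5 Etv5KO and 5 control libraries of lung. The series design states 5 mice per genotype. The authors deposited, per the file headers, a count of uniquely aligned reads for each gene model and an RPKM value that they divided by a size factor. The submitters' processing notes name GSNAP, without a version, and build mm9. Not given in the sources used here are the annotation, the tool that counted and whether it used strand. Of 36528 Entrez IDs, 31049 were named from a RefSeq table (GRCm38.p6), 78 from GENCODE, and 5401 kept their ID.

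Counts were tested with edgeR 4.0.16 in R 4.3.3 (filterByExpr with a minimum count of 10 and total of 15, TMM, quasi-likelihood F test, two-sided, Benjamini-Hochberg over all genes, threshold 0.05), separately for AT2 cells, lung, and control AT2 cells against control lung, and with an interaction term over all libraries. The scripts were tested on simulated data. Standard errors were obtained as the log2 fold change over the root of F, and 95% intervals from these. Levels, shares and ratios use the authors' RPKM. The members and lists were chosen with earlier results of these data known. All members were named, with up to 4 genes per list past the threshold in AT2 cells and up to 2 in lung, and 3 genes of like pattern for each of 2 members (mean of at least 5 CPM, prior count 2). Alternatives were RLE, library size and the authors' size factors as scaling, no filter, DESeq2 1.42.0, limma-voom (limma 3.58.1), all groups in 1 fit, leaving out each library, and CPM per implied length for levels. Replicate pairs differed beyond counting noise (chi-square per degree of freedom 7.81 to 61.8 over 36 pairs). Nothing says that libraries of a group came from separate mice other than the stated number of mice, so p-values measure the spread between these libraries.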

Additional observations from a re-analysis of the deposited data

Results flagged for a closer look

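Cers5 in control lung library 4 stood at 30.5 nRPKM, away from the other 4 control lung libraries, which lay between 28.4 and 28.8 nRPKM. Of 40 groups of libraries looked at, 1 had such a gap. Chance flags about 1 in 20, so nothing is read from this flag. The genotype effect on Cers6 differed between tissues, with an effect in AT2 cells minus that in lung of -0.81 on the log2 scale (adjusted p = 0.0443 by edgeR), and this call depends on the libraries used.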

How the results depend on the processing

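In AT2 cells Cers6, Cers4 and Sgpp2 passed, with the same direction, under all 16 alternatives, and so did Sgpp2 in lung under all 17. Genes past the threshold in lung numbered 71, against 197 with DESeq2, 122 with all groups in 1 fit and 44 to 80 with a library left out; those past it in the interaction numbered 282, against 467 with DESeq2 and 198 to 319 with a library left out. Members past it in the interaction numbered 1, against 2 with DESeq2, 0 with library size only, 0 with limma-voom and 0 to 1 with a library left out. Changes near 0 turned sign: Degs1 in AT2 cells was 0.055 with library size only, 0.0034 with the authors' size factors and -0.093 to 0.053 with a library left out, and in the interaction 0.013 with library size only and -0.11 to 0.050 with a library left out. With a library left out, lung log2 fold changes ran from -0.025 to 0.11 for Cers4, -0.0097 to 0.074 for Cers5, -0.14 to 0.016 for Cers6, -0.21 to 0.075 for Sphk1 and -0.0073 to 0.067 for Sgpl1, and interaction terms from -0.084 to 0.11 for Sphk2 and -0.10 to 0.0018 for Sgpp1. The cause was not tested. No paired analysis was possible because the labels give no replicate numbers that tie libraries of different groups. The low counts of Sphk1 and Cers6 in AT2 cells limit the precision of both.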
